A study of Mus musculus with 4 samples.

Results

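Laminin chains, type IV collagen, nidogens and perlecan are the core components of the basement membrane, and 10 of their genes were examined in cultured rib chondrocytes of embryos mutant for Senp6 and of controls. Senp6 encodes a protease that removes SUMO2 and SUMO3 from proteins. The genes were chosen by name, in a list drawn up when results of these same samples were already known, so their p values, adjusted over all genes, describe the fit and are not independent evidence. All 10 were found among the 18298 genes with at least 1 read, and all 10 passed the filter on low counts (at least 10 reads in at least 2 samples), as did 14123 genes in all. Chondrocytes were released from the rib cartilage of E18.5 mouse embryos on a C57BL/6 background, and the labels give passage P1. The mutant group (Mut, 2 samples) had the genotype Dermo1-Cre;Senp6f/f, and the control group (WT, 2 samples) had Senp6f/f without Cre, so both groups carried the floxed alleles. Dermo1-Cre is active in mesenchymal progenitors of bone and cartilage, and whether cells of other origin in a culture kept Senp6 was not measured. The labels do not say whether the samples of a group came from separate embryos, so the p values measure the spread between these samples only.

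A laminin is a trimer of an alpha, a beta and a gamma chain, and many laminins assemble into a sheet at the cell surface. Type IV collagen forms a second network, nidogen binds the laminin gamma1 chain and the collagen, and perlecan, a heparan sulfate proteoglycan, is anchored to both. Chondrocytes have no continuous basement membrane, but cartilage holds several of these proteins in the matrix next to the cell, and mice that lack perlecan have defective cartilage. The alpha chain sets which receptors a laminin binds, whereas the beta1 and gamma1 chains are shared between laminins with different alpha chains.

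Among the 10 members, Lama5, the laminin alpha5 chain of epithelial and vascular basement membranes, had the largest difference between the genotypes. It was 3.61-fold higher in the mutant, and its p value was the smallest of the 14123 genes tested, although its adjusted p, 0.0512 by edgeR, missed the threshold of 0.05. Its trimer partners Lamb1 and Lamc1 and the structural genes Col4a1, Col4a2 and Hspg2 differed by less than the spread between samples. Lama4, the alpha chain that dominated in these cells, had lower values in both mutant samples. With the Benjamini-Hochberg adjusted p of edgeR (quasi-likelihood test) held at 0.05, 0 of the 10 members and 0% of all genes passed. At an unadjusted p under 0.05 the same test held 1 of the 10 members and 2199 of the 14123 genes, and DESeq2 called 697 genes, 1 of them a member.

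Upstream sequences are shown for Lama5 and Lama2, alpha chain genes that differed in their change between the genotypes. Of the 10 genes, 7 had an entry in the RefSeq promoter table (GRCm38.p6), and Lama5 and Lama2 were those whose 250 bases before the start site held no annotated exon. Each is written 5′ to 3′ on the strand of the gene and ends at the base before the start site. Capitals mark the GC box, GGGCGG on either strand.
Lama5, chr2:180225860-180226109, minus strand: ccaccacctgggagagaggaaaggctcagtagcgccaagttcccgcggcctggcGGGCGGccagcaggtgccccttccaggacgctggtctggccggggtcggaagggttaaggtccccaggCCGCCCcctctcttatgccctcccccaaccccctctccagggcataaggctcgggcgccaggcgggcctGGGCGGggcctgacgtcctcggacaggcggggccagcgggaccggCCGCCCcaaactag
Lama2, chr10:27616943-27617192, minus strand: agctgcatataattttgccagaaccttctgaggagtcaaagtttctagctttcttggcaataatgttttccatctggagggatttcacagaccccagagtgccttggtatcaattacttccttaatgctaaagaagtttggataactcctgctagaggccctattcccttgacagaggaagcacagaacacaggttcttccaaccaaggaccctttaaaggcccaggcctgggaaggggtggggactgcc
The Lama5 window held 4 GC boxes and was 72.4% G and C, more than 93.6% of the 32851 windows in the table, whose median was 52.4%. The Lama2 window held no GC box and was 47.2% G and C. A GC box was present in 32.7% of all windows and in 5 of the 7 members with an entry, among them Hspg2 with 5 and Nid1 with 1. Searched on both strands, TATAAA was in 12.4% of all windows and in no member window, and TGACTCA, an AP-1 site, was in 4.46% and again in no member window. CCAAT was in 33.8% of all windows and in 4 of the 7. The p53 half-site was in 7.13% of all windows and in 1 of the 7, that of Nid1. In the same table Col4a1 (minus strand, base 11312826) and Col4a2 (plus strand, base 11312805) start 21 bases apart on chromosome 8. Each is thus transcribed across the start of the other, and 22 annotated exon bases of Col4a1 overlap Col4a2 on the opposite strand.

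The series as a whole had between 2.1e+07 and 3.1e+07 reads counted on genes per sample, the lowest total being that of WT replicate 1. Senp6 was at 55.4 and 88.6 CPM (read counts scaled to a common library total, with TMM factors) in WT replicates 1 and 2 and at 59.3 and 38.8 in Mut replicates 1 and 2. The groups overlapped (log2 fold change -0.56, adjusted p = 0.41 by edgeR), and the files do not separate the deleted exons from the rest of the gene. Reads of all 13 chondrocyte markers were present in every sample, with Col2a1 at 609 and 659 RPKM in WT and 334 and 445 in Mut. Summed over the 13, the level was 1046 and 1031 RPKM in WT against 515 and 649 in Mut, and all 13 had both mutant samples below both controls, as did 22.8% of all tested genes. Fibroblast and perichondrium markers, 9 of 9 present, summed to 12845 and 8899 RPKM in WT and to 8965 and 6589 in Mut, more than the chondrocyte markers in each sample. The largest part of that sum was Col1a1, at 7253 and 4961 RPKM in WT and 4828 and 3311 in Mut. Sums of different genes do not give the numbers of cells of each type. Of the 9 fibroblast and perichondrium markers, 5 had both mutant samples below both controls and 1 had both above, with a median log2 fold change of -0.61. Mut replicate 2 stood apart in sex-linked genes, with 11354 reads of Xist, which is expressed from the inactive X chromosome, against 2 to 5 in the other 3 samples, and with 7 reads summed over 4 Y-linked genes against 2088 to 3584. Sex was thus mixed within the mutant group and not within the controls. In bulk RNA, fewer cells of a type and less RNA per cell cannot be told apart. The 10 members together took 0.667% and 0.559% of the counts in WT and 0.661% and 0.600% in Mut, and the mutant shares lay between those of the controls.

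**Figure D1:**
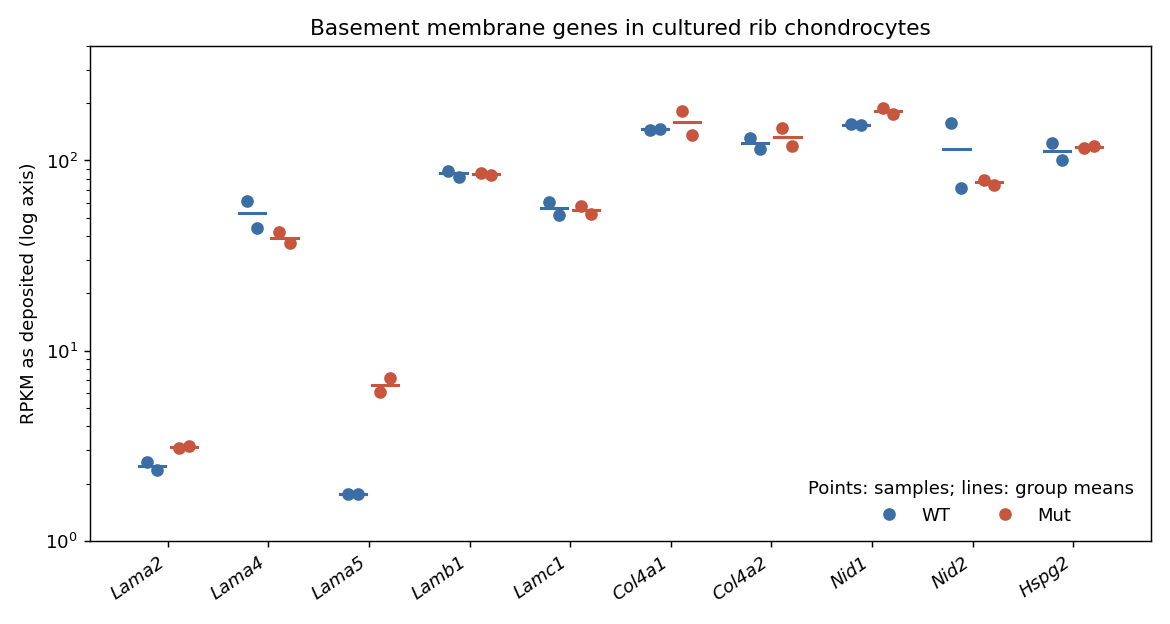
Deposited RPKM (reads scaled by gene length and library total, log axis) of each of the 10 genes, with WT samples in blue, Mut samples in red and lines at the group means. Lama5 and Lama2 lie below the other 8 in every sample, the Lama5 points of the mutant at 6.03 and 7.14 are clear of those of WT at 1.77, and Nid2 shows 1 WT sample at 157 with the other 3 between 72.0 and 79.2.

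The members fell into 2 levels. Per gene length, 8 of the 10 were above 30 RPKM in every sample, and the alpha chains Lama2 and Lama5 were below it in every sample. The mean over the 4 samples was 168 ± 16.7 RPKM (SD, n = 4) for Nid1, 152 ± 19.8 for Col4a1, 128 ± 15.0 for Col4a2 and 115 ± 10.2 for Hspg2. These were followed by Nid2 at 95.5 ± 40.9 RPKM, Lamb1 at 85.0 ± 2.72, Lamc1 at 55.5 ± 4.37 and Lama4 at 46.2 ± 10.7, and then by Lama5 at 4.18 ± 2.82 and Lama2 at 2.79 ± 0.377. Each SD spans both genotypes, and Lama5 by genotype was at 1.77 ± 0.00141 RPKM in WT and 6.59 ± 0.784 in Mut (SD, n = 2). Nid1 was above Col4a1 and Col4a1 above Col4a2 in 4 of 4 samples. Col4a2 was above Hspg2 in 3 of 4, Lamc1 above Lama4 in 3 of 4 and Nid2 above Lamb1 in 1 of 4, so these neighbours did not keep one order. Lama5 was above Lama2 in 2 of 4 samples, both of them mutant.

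Lama5 (Entrez Gene 16776, chromosome 2) had 425 and 528 reads in WT replicates 1 and 2 and 2132 and 2300 reads in Mut replicates 1 and 2. These correspond to 1.77 RPKM in each WT sample and to 6.03 and 7.14 RPKM in the Mut samples. The groups were far apart, with WT replicates almost equal and mutant replicates 0.21 apart on the log2 scale. The log2 fold change of Mut over WT was 1.85 (SE, the standard error, 0.144, 95% interval 1.50 to 2.20). Its adjusted p of 0.0512 by edgeR was the smallest in the table and was shared by 2 genes. By log2 fold change Lama5 ranked 260th, but only 3 genes with at least its mean CPM had a larger value. Reads covered 92.6% and 93.6% of the gene length in WT and 99.6% and 98.6% in Mut, so they were spread along the transcript in all 4 samples, and no exon of another annotated gene overlaps those of Lama5.

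Whether Lama5 was called depended on the test. DESeq2 gave a log2 fold change of 1.83 and an adjusted p of 8.14e-19, in a table where 3.07% of genes were called higher in the mutant.  Had the threshold on the edgeR adjusted p been 0.1, 1.52% of all genes would have been called higher in the mutant, with Lama5 the single member among them. Leaving out each sample in turn kept the log2 fold change between 1.75 and 1.95, the lowest value being that without Mut replicate 2. Each of these fits left a genotype without replicates and assumes that it varies like the other.

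Markers of other cell types were read beside Lama5, and 0 of them passed the threshold of 0.05 on the adjusted p of edgeR. Among all tested genes, 25.4% had both mutant samples above both controls and 22.8% had both below. The epithelial list (Epcam, Cdh1, Krt5, Krt14, Krt8, Krt18, Cldn4 and Trp63) summed to 4.5 and 11.1 RPKM in WT and to 21.8 and 28.0 in Mut. Most of that sum was Krt18, at 3.47 and 9.24 RPKM in WT and 19.5 and 24.1 in Mut, while Krt5 had no read in either mutant sample and Cldn4 none in either WT sample. Of its 8 genes, 4 were tested and 3 had both mutant samples above both controls. Schwann cell markers summed to 13.1 and 9.87 RPKM against 13.2 and 21.6, with 6 of 7 tested genes higher in each mutant sample than in either control. Smooth muscle and pericyte markers summed to 1427 and 1650 RPKM against 2146 and 2023, with 8 of 10 higher in that sense. Striated muscle markers summed to 81.7 and 23.0 RPKM in WT and to 117 and 135 in Mut, with 8 of 12 higher. The sum of the endothelial markers overlapped between the groups, at 9.0 and 7.61 RPKM in WT and 8.12 and 10.9 in Mut. Of the 8 tested, 2 (Kdr and Erg) had both mutant samples above both controls, 1 (Tek) had both below and 5 overlapped. Other lists had more genes with both mutant samples below both controls, namely 5 of 7 adipocyte, 6 of 7 tested macrophage and 5 of 6 tested osteoblast markers, with median log2 fold changes of -1.89, -0.72 and -0.98. The part of these cell types in the Lama5 values was not tested.

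**Figure D2:**
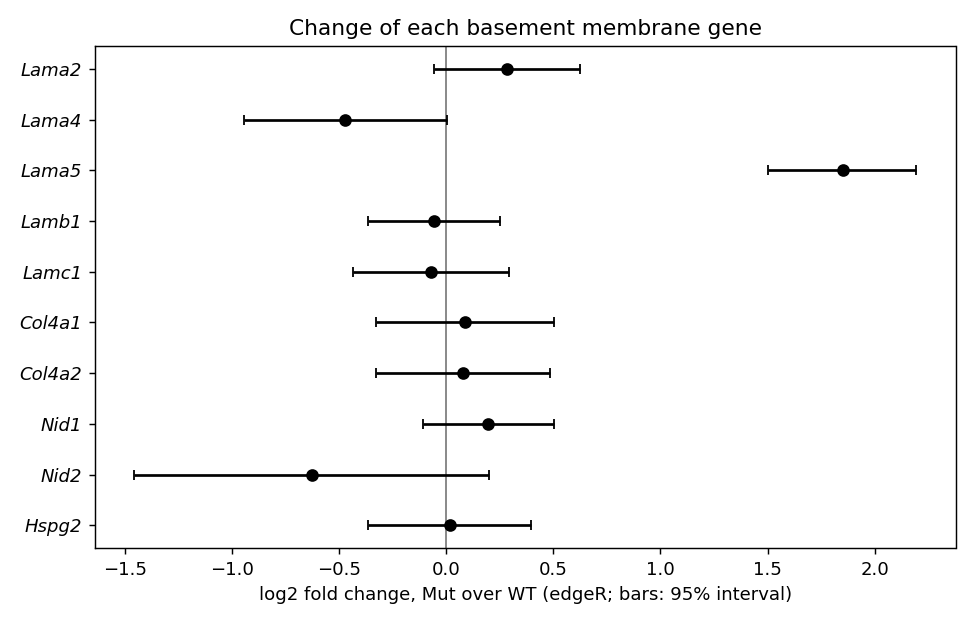
The log2 fold change of Mut over WT for each of the 10 genes (points) with its 95% interval from the edgeR quasi-likelihood fit (bars), the vertical line marking no change. The interval of Lama5 runs from 1.50 to 2.20, and that of each of the other 9 includes 0, Lama4 reaching it by 0.004.

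Lama4 (Entrez Gene 16775, chromosome 10), the alpha chain typical of mesenchymal and endothelial laminins, was at 61.5 and 44.4 RPKM in WT and at 42.0 and 36.7 RPKM in Mut. Both mutant values lay below both control values, but the gap between Mut replicate 1 and WT replicate 2 was small beside that between the WT replicates, which were 0.53 apart on the log2 scale. The log2 fold change was -0.47 (SE 0.198, 95% interval -0.95 to 0.004, adjusted p = 0.326 by edgeR). WT replicate 1 set its size, since the log2 fold change was -0.19 without that sample and -0.74 without WT replicate 2 (adjusted p = 0.00407 by edgeR, with 1 control sample left).

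Lama2 (Entrez Gene 16773, chromosome 10), the alpha chain of muscle and peripheral nerve basement membranes, was at 2.60 and 2.36 RPKM in WT and at 3.08 and 3.14 RPKM in Mut. Its groups did not overlap, and the log2 fold change was 0.28 (SE 0.143, 95% interval -0.06 to 0.63, adjusted p = 0.411 by edgeR). An antisense gene overlaps 3.86% of its annotated exon bases, and the counting is not stated to use strand.

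The make-up of the alpha chain transcripts differed between the genotypes in all samples. Lama4 made up 93.4% and 91.5% of the summed RPKM of Lama2, Lama4 and Lama5 in WT and 82.2% and 78.1% in Mut. The share of Lama5 was 2.69% and 3.65% in WT and 11.8% and 15.2% in Mut. The share of Lama2 was 3.94% and 4.87% against 6.03% and 6.67%. The ratio of Lama5 to Lama4, which does not depend on the scaling of a library, was 0.0344 ± 0.00783 (SD, n = 2) in WT and 0.169 ± 0.036 in Mut, and that of Lama2 to Lama4 was 0.0477 ± 0.00778 and 0.0793 ± 0.0085. The smallest p that an exact two-sided permutation test allows for 2 against 2 samples is 0.33, so these ratios are given without a test.

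**Figure D3:**
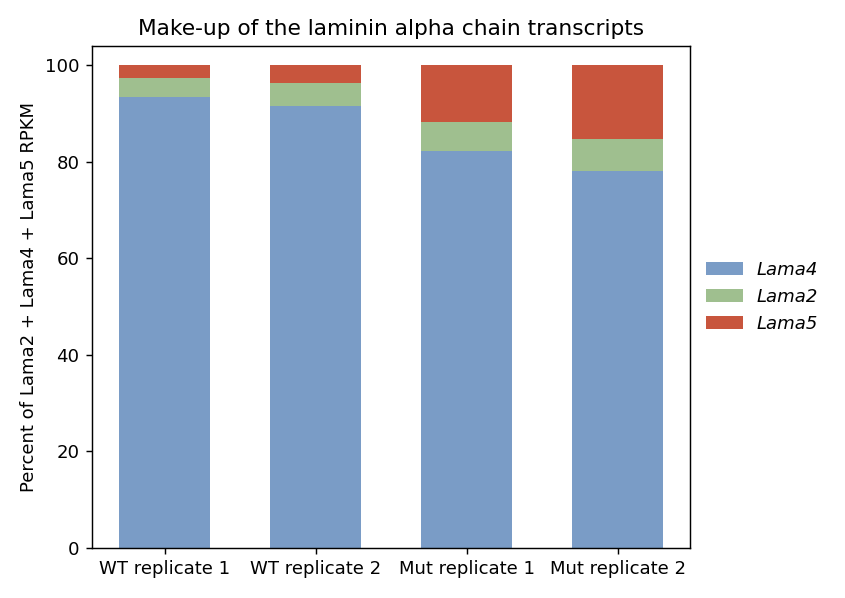
Stacked bars of the share of Lama4, Lama2 and Lama5 in their summed RPKM (percent, axis from 0) in each of the 4 samples. The Lama5 share is 2.69% and 3.65% in the WT samples and 11.8% and 15.2% in the Mut samples, and Lama4 remains the largest share in every sample.

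The common partners of these alpha chains differed by less than the spread between samples. Lamb1 (Entrez Gene 16777, chromosome 12), the laminin beta1 chain, was at 88.5 and 82.3 RPKM in WT and at 85.6 and 83.4 RPKM in Mut. Lamc1 (Entrez Gene 226519, chromosome 1), the gamma1 chain that carries the nidogen binding site, was at 60.6 and 51.4 RPKM in WT and at 57.6 and 52.4 RPKM in Mut. For both genes the mutant values lay within the range of the controls. The 95% interval of the log2 fold change was -0.37 to 0.25 for Lamb1 and -0.44 to 0.29 for Lamc1, with edgeR adjusted p values of 0.875 and 0.870. The ratio of Lamb1 to Lamc1 was 1.46 and 1.6 in WT and 1.49 and 1.59 in Mut. The profiles of Lamb1 and Lamc1 over the 4 samples were the closest of the 45 pairs of members, with a root mean square difference of 0.0593 between their centred log2 CPM. The summed alpha chains over Lamc1 gave 1.09 and 0.944 in WT and 0.889 and 0.898 in Mut, since Lama4 outweighed Lama5 in the sum.

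The type IV collagen chains differed by less than the spread between samples in level and in ratio. Their common trimer holds more alpha1 than alpha2 chains. Col4a1 (Entrez Gene 12826, chromosome 8), the alpha1 chain, was at 145 and 146 RPKM in WT and at 181 and 136 RPKM in Mut. Col4a2 (Entrez Gene 12827, chromosome 8), the alpha2 chain of the same trimer, was at 131 and 115 RPKM in WT and at 148 and 119 RPKM in Mut. Mut replicate 1 was the highest sample for both genes, and the mutant values fell on either side of the controls for Col4a1. The log2 fold changes were 0.09 (95% interval -0.33 to 0.50) and 0.08 (95% interval -0.33 to 0.48), with edgeR adjusted p values of 0.860 and 0.875. The ratio of Col4a1 to Col4a2 was 1.11 and 1.27 in WT and 1.22 and 1.15 in Mut.

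The nidogens, which link the laminin and collagen networks, differed from each other in pattern. Nid1 (Entrez Gene 18073, chromosome 13) was at 155 and 153 RPKM in WT and at 188 and 176 RPKM in Mut. Both mutant samples were above both controls, by a log2 fold change of 0.20 (SE 0.128, 95% interval -0.11 to 0.50, adjusted p = 0.534 by edgeR). Nid2 (Entrez Gene 18074, chromosome 14) was at 157 and 72.0 RPKM in WT and at 79.2 and 74.2 RPKM in Mut. WT replicate 1 stood apart from the other 3 samples, the WT replicates being 1.18 apart on the log2 scale. The log2 fold change of Nid2 was -0.63 (SE 0.346, 95% interval -1.46 to 0.20, adjusted p = 0.454 by edgeR). Without WT replicate 1 it was 0.074, and without WT replicate 2 it was -1.13 (adjusted p = 0.000188 by edgeR, with 1 control sample left). The ratio of Nid1 to Nid2 was 0.991 in WT replicate 1 and between 2.13 and 2.37 in the other 3 samples. Adipocyte markers, 7 of 7 present, also set that sample apart. They summed to 324 RPKM in WT replicate 1, 94.3 in WT replicate 2 and 51.8 and 72.1 in Mut. The fibroblast and perichondrium sum was highest there too, at 12845 RPKM against 8899 in WT replicate 2 and 8965 and 6589 in Mut. Chondrocyte and macrophage sums were highest there by less, and the sums of the other marker lists were not highest there. The part of these cell types in the Nid2 and Lama4 values was not tested. Exons of Rtraf, on the opposite strand, overlap 8.45% of the annotated exon bases of Nid2, which could add reads if strand was not used.

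Perlecan was the most heavily read member. Hspg2 (Entrez Gene 15530, chromosome 4) had 37114 and 37357 reads in WT and 50937 and 47693 in Mut, at 124 and 101 RPKM and at 116 and 119 RPKM. The mutant samples lay between the controls. Its log2 fold change was 0.02 (SE 0.158, 95% interval -0.36 to 0.39, adjusted p = 0.976 by edgeR), and the ratio of Hspg2 to Lamc1 was 2.05 and 1.96 in WT and 2.01 and 2.27 in Mut.

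Counted over the 10 members, 3 had both mutant samples above both controls (Lama5, Lama2 and Nid1) and 1 had both below (Lama4). Among all genes tested these shares were 25.4% and 22.8%, so the members' counts were near the background. The median log2 fold change was 0.05 over the members and 0.01 over all genes. Over the members without Lama5 it was 0.02, and 7 of the 10 were within 0.3 of no change.

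**Figure D4:**
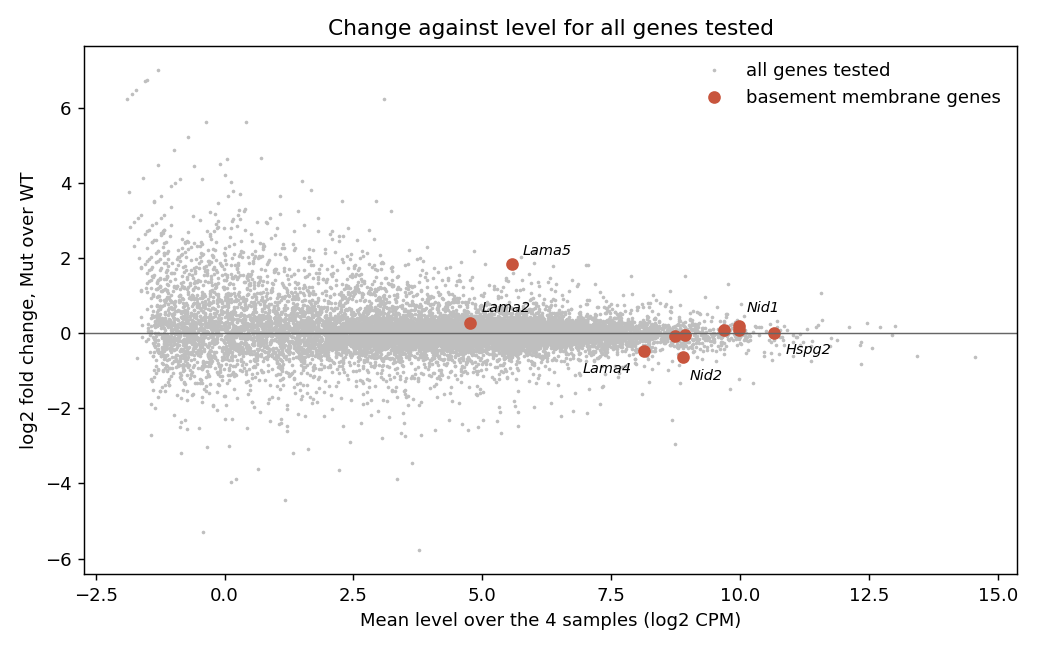
Each grey point is 1 of the 14123 genes tested, at its mean level (log2 CPM) and its log2 fold change of Mut over WT, and the 10 members are red. Lama5 lies at the upper edge of the genes of its level, with 3 genes at or above that level higher still, while Nid2 and Lama4 lie below the line of no change at -0.63 and -0.47, and the other 7 lie within 0.3 of it.

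The other genes of the pathway were read from lists of further chains, other basement membrane components, receptors, and enzymes of assembly and secretion, and 0 of these genes passed the threshold of 0.05 on the adjusted p of edgeR. Of the 10 other laminin and type IV collagen chains, 8 were tested, and 6 had both mutant samples above both controls and 0 had both below, beside the 25.4% and 22.8% of all genes. Their median log2 fold change was 0.76, and the levels of most were low. Lamc3, a gamma chain found outside the classical basement membrane, had 4 and 6 reads in WT and 16 and 57 in Mut, a log2 fold change of 2.5 (SE 0.785, adjusted p = 0.204 by edgeR). Lamb3, a beta chain of the epithelial anchoring laminin, had 12 and 5 reads against 25 and 40, a log2 fold change of 1.52 (SE 0.623, adjusted p = 0.312 by edgeR). All 10 chains together summed to 39.5 to 53.5 RPKM, of which Lamb2, the beta2 chain, made up 33.7 to 47.7 RPKM with a log2 fold change of -0.06.

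Of the 18 other basement membrane components, all tested, 10 had both mutant samples above both controls and 2 had both below, beside 25.4% and 22.8% of all genes, with a median log2 fold change of 0.56. Tinagl1, a secreted protein that binds laminin and integrins, was at 23.9 and 39.4 RPKM in WT and at 70.7 and 89.6 RPKM in Mut (log2 fold change 1.30, standard error 0.236, adjusted p = 0.0901 by edgeR). Frem2, a membrane-anchored protein of the epithelial basement membrane, had a log2 fold change of 2.32 from 19 and 4 reads in WT and 93 and 64 in Mut (adjusted p = 0.184 by edgeR). Frem1, its secreted relative, had 279 and 117 reads in WT and 99 and 124 in Mut, a log2 fold change of -1.28 (adjusted p = 0.297 by edgeR), with WT replicate 1 apart from the other 3 samples. Sparc, a collagen-binding glycoprotein and the most abundant gene of the list, was at 2596 and 2226 RPKM in WT and at 2171 and 2061 RPKM in Mut, a log2 fold change of -0.23 (adjusted p = 0.533 by edgeR).

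Among the 15 receptors, all tested, 10 had both mutant samples above both controls and 1 had both below, beside the same 25.4% and 22.8%, with a median log2 fold change of 0.34. Bcam, the Lutheran glycoprotein that binds the laminin alpha5 chain, was at 4.13 and 3.89 RPKM in WT and at 6.93 and 10.3 RPKM in Mut, a log2 fold change of 1.06 (SE 0.225, adjusted p = 0.111 by edgeR). Itga3, a subunit of a laminin-binding integrin, was at 17.0 and 27.4 RPKM in WT and at 39.3 and 50.7 RPKM in Mut, a log2 fold change of 0.98 (SE 0.231, adjusted p = 0.125 by edgeR). These 2 genes were named as the largest increases of the list. Their mutant samples lay above the controls, as they did for 10 of the 15 receptors and for Lama5. Itga1, a subunit of a collagen-binding integrin, was at 7.93 and 5.80 RPKM in WT and at 4.46 and 4.02 RPKM in Mut, a log2 fold change of -0.74 (SE 0.199, adjusted p = 0.159 by edgeR).

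Of the 17 enzymes and chaperones of assembly and secretion, all tested, 2 had both mutant samples above both controls and 7 had both below, where the shares of all genes were 25.4% and 22.8%, with a median log2 fold change of -0.11. Colgalt2, a collagen galactosyltransferase, had the most negative value, -1.66, from 42 and 25 reads in WT and 11 and 17 in Mut (adjusted p = 0.221 by edgeR). Serpinh1, the collagen chaperone HSP47, was at 1763 and 1398 RPKM in WT and at 1379 and 1194 RPKM in Mut, a log2 fold change of -0.34 (adjusted p = 0.430 by edgeR). Large, a glycosyltransferase that builds the laminin-binding sugar of dystroglycan, had a log2 fold change of 0.35 (adjusted p = 0.265 by edgeR), and P4ha3, a collagen prolyl hydroxylase subunit, one of 0.17 (adjusted p = 0.610 by edgeR).

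**Figure D5:**
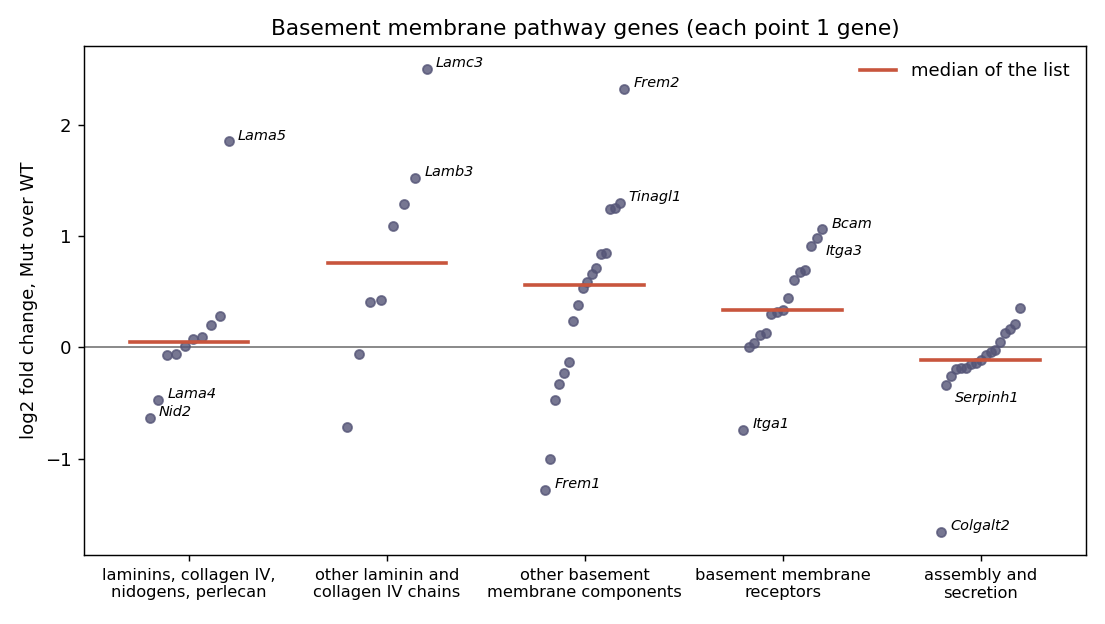
The log2 fold change of Mut over WT of each tested gene (points, spread sideways by rank) in the 10 members and the 4 other lists, with the median of each list as a red line. The medians are 0.05, 0.76, 0.56, 0.34 and -0.11 from left to right, and Lama5 stands apart from the other members at 1.85.

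The genes whose profile over the 4 samples was closest to the mean of the 10 members were Dlgap4, Dbn1 and Rgmb, with root mean square differences of 0.0182, 0.0239 and 0.0268 in centred log2 CPM among 8113 genes with a mean log2 CPM of at least 4. For Lama5 alone, a comparison added after the values were seen, the closest were Plekha6, Tcfl5 and Fam46b, at 0.123, 0.186 and 0.207. With 4 samples many genes share a profile, so this likeness is a description only. Among the members, Lama5 and Nid2 were the least alike pair, at 1.25.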

How the data were processed

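RNA of 2 WT and 2 Mut samples was enriched for mRNA, sequenced by a service and counted per gene by the authors. The deposited read counts are whole numbers without normalization. The deposited RPKM is the count scaled by listed gene length and by the total of counted reads, and the deposited coverage is the percent of that length with reads. Absent genes were given 0. The submitters' processing notes name mm9 and SAMtools; the aligner and counter are not given in the sources used here.

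The quasi-likelihood model of edgeR 4.0.16 (R 4.3.3) was fitted to the counts with TMM factors and no block, two-sided, for genes that reached 10 counts in 2 or more samples, and p values were adjusted by Benjamini-Hochberg (threshold 0.05). DESeq2 1.42.0 and limma 3.58.1 on log2(RPKM + 1) and log2(RPKM + 0.1) were alternatives. The TMM factors were 0.966 to 1.03. Intervals are 95%. Scripts were tested on simulated data. Chi-square per degree of freedom between replicates was 51.5 (WT) and 24.9 (Mut), so no library was repeated.

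Members and lists were chosen with earlier results of these data known. Named were all members, the 2 largest changes in each direction without overlap of the groups in each pathway list, any gene past the threshold (none), Senp6, and the 3 genes nearest in profile; Lamb2 and single marker genes were added after their values were seen. Blood markers, 3 of 6 of which had a row, summed to at most 0.252 RPKM. Macrophage markers summed to 23.1 and 20.7 RPKM in WT and 11.4 and 15.9 in Mut, and osteoblast markers to 496 and 551 against 510 and 653, of which Spp1 made up 310 and 468 against 479 and 600. Sequences and start sites come from the RefSeq table of GRCm38.p6, and exon overlaps from GENCODE M21 of the same build, not from mm9.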

Additional observations from a re-analysis of the deposited data

How the results depend on the processing

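The counts of called genes and members, the median log2 fold change of the members and the log2 fold change of each member were recomputed under 12 alternatives. The counts of members without overlap were recomputed from the deposited RPKM only, and stayed at 3 higher and 1 lower in Mut. The ratios, the other gene lists and the comparison of profiles were not recomputed. With a threshold of 0.05 on the adjusted p, the count of called genes, which was 0, became 697 with DESeq2, 286 without a filter on low counts and 117 with the replicate block, and ranged from 105 (without Mut replicate 2) to 2740 (without WT replicate 2) with 1 sample left out. The count of called members became 1, namely Lama5, with DESeq2, without a filter and with the replicate block, and ranged from 1 to 3 with 1 sample left out, reaching 3 (Lama5, Lama4 and Nid2) without WT replicate 2. It stayed 0 with RLE or upper-quartile factors, with 10 counts required in every sample and with limma on log2(RPKM + 1) or log2(RPKM + 0.1). Fits with a group of 1 sample assume that it varies like the other group. The replicate numbers were not taken as pairs: the replicate 1 minus replicate 2 differences of WT and Mut had a correlation of -0.0422 across genes. With the replicate block Lama5 had a log2 fold change of 1.85 and an edgeR adjusted p of 0.0365, and the block moved the call of no other member. The median log2 fold change of the members ranged from -0.12 to 0.15 with 1 sample left out, the lowest without WT replicate 2 and the highest without WT replicate 1.

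The direction held under all 12 alternatives for Lama5, Lama2, Lama4 and Nid1, with Lama5 between 1.45 and 1.95. It turned for the other 6 members, all with small changes apart from Nid2. Hspg2 was at -0.002 with DESeq2 and with RLE factors. With 1 sample left out the ranges were -0.15 to 0.30 for Col4a1, -0.11 to 0.25 for Col4a2, -0.18 to 0.20 for Hspg2, -0.16 to 0.02 for Lamb1, -0.24 to 0.08 for Lamc1 and -1.13 to 0.074 for Nid2. The cause of these turns was not tested.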
